A study of Arabidopsis thaliana with 2 samples.

Results

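The large subunit of the cytosolic ribosome, called 60S, holds several ribosomal RNAs and a set of ribosomal proteins named with the letter L. In Arabidopsis thaliana most of these proteins are encoded by a small family of paralogues, genes that arose by duplication and encode forms of the same protein. Their transcript levels were compared between leaf mesophyll protoplasts under control conditions and under hypoxia. The members were 60 listed genes for 26 proteins, taken where the array annotation pairs a probe set with exactly 1 gene. Such a probe set was found for 38 of the 60 genes, which encode 19 of the 26 proteins, among 13355 genes with a single-gene probe set in all. The other 22 genes were not analysed here. Of these, 3 are annotated only on probe sets paired with several genes. No gene of L3, L5, L8, L10, L11, L23a or L24 had a value.

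Protoplasts are plant cells freed from their walls, here from the photosynthetic ground tissue of the fifth and sixth leaves of 36 pooled plants. Cells from that pool made up a sample kept under control conditions and a sample put under hypoxia, each incubated for 6 h in mannitol buffer in light of 80 microeinstein and hybridised to 1 Affymetrix array. Control cells lay in 10 ml of buffer at a depth of 0.6 mm in a dish, and hypoxic cells were submerged in 2 ml at a depth of 25 mm in a tube. The study set out to find genes induced by hypoxia. Low oxygen cannot be told apart from the other differences between the samples, which included the vessel and the depth and volume of the buffer. With equal cell numbers in both, the number of cells per volume would be 5.0 times higher in hypoxia. The labels gave no strain, genotype or plant age.

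There was 1 array per group, so no test and no replicate error could be had, and every difference below compares these 2 arrays. Median intensities over probe sets other than controls were 345 for control and 334 for hypoxia. Intensities are given as deposited, on a linear scale, and log2 ratios are of hypoxia over control after each array was divided by its median. Low values were raised to a floor of 166, and a gene is called measured where 1 array or both exceeded it. The only error that could be read from the arrays was the spread between probe sets of the same gene: in 74 genes where a pair of probe sets exceeded the floor in both samples, the log2 ratio had an SD of 0.34. In such bulk samples fewer cells of a type and less RNA per cell cannot be told apart. Mesophyll markers were bright on both arrays. The 6 with values of 7 listed summed to 76533 in control and 142741 in hypoxia. Of the guard cell markers 2 of 4 had values, which summed to 328 and 503, with GC1 at 32.9 in control. The phloem marker SWEET11, the only one of 4 with a value, read 212 and 1020, and 0 of 3 epidermis markers had a value. The part of these markers in the ribosomal protein results was not tested. The genes that the study used to check its treatment were not analysed here.

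A eukaryotic ribosome carries 1 copy of most of its proteins, so cells need their products in matched amounts, and ribosomal protein genes are known to be regulated as a group. Making ribosomes is among the largest costs of a cell's energy budget. In plants, low oxygen is known to lower both the translation of ribosomal protein messages and the energy available for protein synthesis.

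All 60S genes with values read lower in hypoxia. Every one of the 38 lay above the floor on both arrays, and 38 had a log2 ratio below 0, against 52.9% of the 7971 measured genes. At least 2-fold lower were 27 of the 38, where 14.5% of all measured genes were, and 0 were at least 2-fold higher, where 13.0% of all were. At least 4-fold lower were 5, against 1.86% of all. The median log2 ratio was -1.33, a 2.52-fold lower level, beside -0.07 over all measured genes. Ratios ran from -2.61 to -0.19, with quartiles at -1.76 and -0.98 and an SD over genes of 0.54. In control the members lay between 2041 and 32463 with a median of 18234, and in hypoxia between 324 and 18098 with a median of 7215. The ranges of the 2 arrays overlapped, while each gene taken alone was lower in hypoxia.

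**Figure D1:**
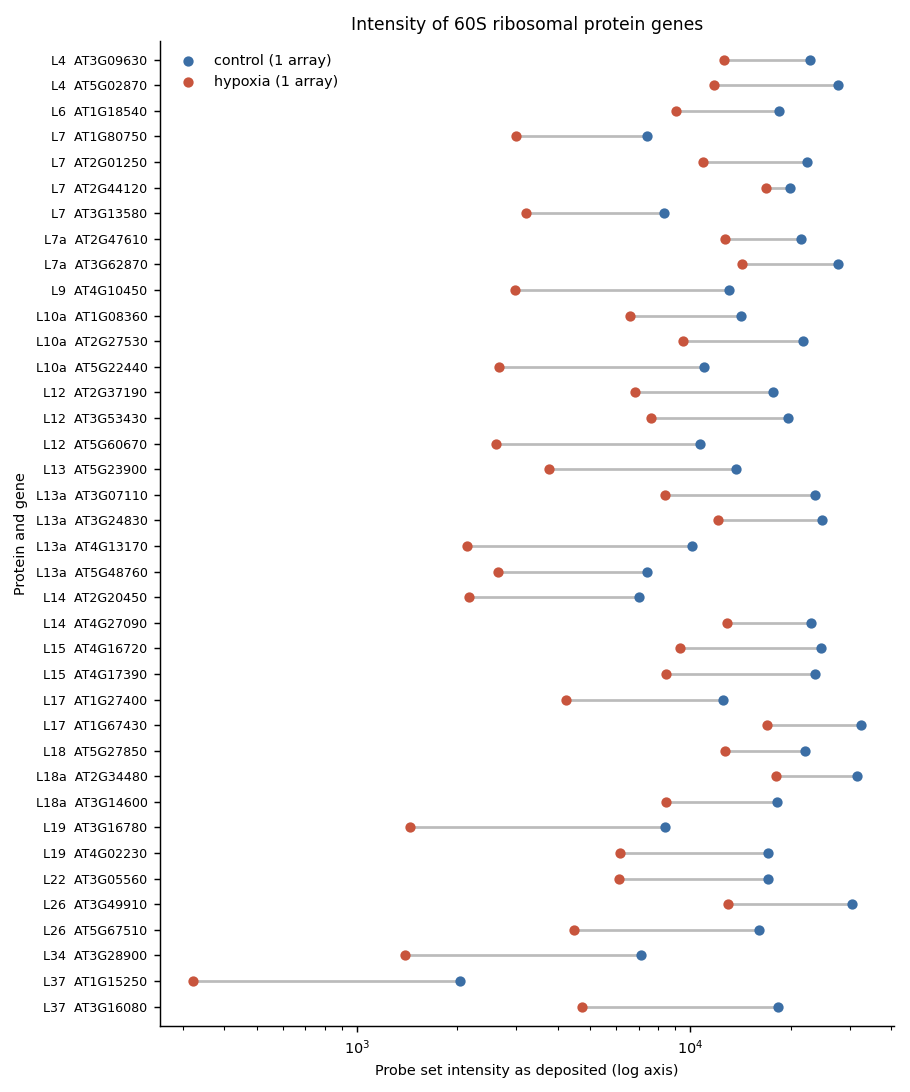
Intensity of the 38 genes for 60S proteins in control (blue) and in hypoxia (red), as deposited, on a log axis, with 1 array per group. Each hypoxia point lies left of its control point, and the gap is narrowest for AT2G44120, at 19946 and 16875.

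Brightness was set beside these ratios, because the members were among the brighter genes of the array. Among the 2360 other measured genes whose control intensity lay inside the range of the members, 20.2% were at least 2-fold lower, 10.5% were at least 2-fold higher, and their median was -0.31 on the log2 scale. The lower end of that range, 2041, was set by AT1G15250 alone, where the members' median was 18234. The 2360 genes were not matched to the members within the range, and they included other ribosomal protein genes. The members' median minus that of all measured genes was -1.27. This difference ran from -1.47 to -1.18 over the settings tried. The median itself ran from -1.83 with centring on the hybridisation controls to -0.94 with centring on the reference genes. A factor applied to a whole array largely cancels in the difference, so its narrower range is no measure of stability to scaling.

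L4, L17, L19 and L26 are among the proteins that line the tunnel through which the new chain leaves the ribosome, or that surround its exit. L4 reaches into the tunnel wall. Of its paralogues, AT3G09630 read 22853 in control against 12591 in hypoxia, a log2 ratio of -0.81. AT5G02870 read 27644 and 11747, a ratio of -1.19. Both genes were lower, and the ratios lay 0.37 apart, close to the probe set SD. L17 also extends into the tunnel. AT1G27400 read 12552 and 4246, a ratio of -1.52, and was 2.86-fold lower. AT1G67430, the brightest member in control, read 32463 and 16925, a ratio of -0.89. The dimmer of the L17 genes thus had the lower ratio, by 0.62.

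L19, which forms part of the rim of the tunnel exit and of a bridge to the small subunit, had paralogues more than 2-fold apart. AT3G16780 read 8404 in control against 1443 in hypoxia, a log2 ratio of -2.50, the second lowest of all members. AT4G02230 read 17120 and 6160, a ratio of -1.43. They lay 1.07 apart, and both were at least 2-fold lower. L26, next to the tunnel exit, showed the same order at a smaller distance of 0.61. AT3G49910 read 30484 and 12929, a ratio of -1.19, and AT5G67510 read 16033 and 4461, a ratio of -1.80.

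L10a and L12 stand on the 2 mobile stalks of the subunit: L10a forms the stalk near the site where spent tRNA leaves, and L12 lies at the base of the stalk that recruits translation factors. All 6 of their genes were at least 2-fold lower. PGY1 (AT2G27530), an L10a gene known from leaf polarity mutants, read 21801 in control against 9486 in hypoxia, a log2 ratio of -1.15. AT1G08360 read 14159 and 6595, a ratio of -1.06. AT5G22440 read 10987 and 2662, a ratio of -1.998, and lay 0.94 below AT1G08360. So PGY1 and AT1G08360 were close to each other, and the third L10a gene lay apart.

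The L12 genes had a similar arrangement. AT2G37190 read 17703 in control against 6797 in hypoxia, a log2 ratio of -1.33. AT3G53430 read 19611 and 7632, a ratio of -1.31. AT5G60670 read 10714 and 2605, a ratio of -1.99. The first pair lay within 0.02 of each other, and AT5G60670 lay 0.68 below the highest of the 3.

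L9, close to where translation factors bind the subunit, was represented by AT4G10450. It read 13053 in control against 2981 in hypoxia, a log2 ratio of -2.08 and a 4.24-fold lower level. It was among the 5 members at least 4-fold lower.

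L7 and L13a had 4 paralogues each with values, and both had members more than 2-fold apart. For L7, a protein that takes part in early steps of subunit assembly in yeast, AT2G44120 stood apart from all other members. It read 19946 in control against 16875 in hypoxia, a log2 ratio of -0.19, while the next highest member of any protein was at -0.71. It was also the only member whose direction depended on the scaling, with a ratio of 0.19 under centring on the reference genes. Its paralogue AT2G01250 read 22373 and 10874, a ratio of -0.99. AT1G80750 read 7419 and 2993, a ratio of -1.26. AT3G13580 read 8348 and 3217, a ratio of -1.33, which is 1.13 below AT2G44120. The other three L7 genes thus lay close together, and the family's spread came from AT2G44120.

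For L13a, AT4G13170 read 10138 in control against 2143 in hypoxia, a log2 ratio of -2.20 and a 4.58-fold lower level. AT3G24830 read 24734 and 12123, a ratio of -0.98, just within 2-fold. These were 1.21 apart, the largest distance between paralogues of the same protein. The other L13a genes lay between them and close together. AT3G07110 read 23696 and 8394, a ratio of -1.45, and AT5G48760 read 7393 and 2644, a ratio of -1.44. Their ratios were 0.01 apart.

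**Figure D2:**
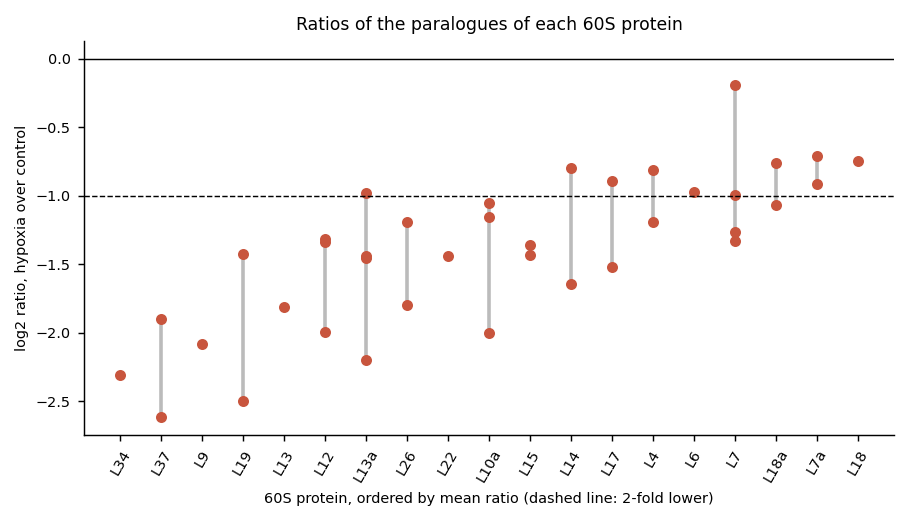
Log2 ratio of hypoxia over control for each gene (points) of the 19 proteins with values, with a grey bar over the range of the paralogues and a dashed line at 2-fold lower. The longest bars are those of L13a (1.21), L7 (1.13) and L19 (1.07), and every point lies below 0.

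L37, a small zinc-binding protein, and L34 had the lowest ratios by protein. AT1G15250, an L37 gene, was the dimmest member on both arrays, at 2041 in control and 324 in hypoxia. Its log2 ratio of -2.61, or 6.11-fold lower, was the lowest of all members, and it became a bound of -1.57 when the floor was set at the 60th percentile, which its hypoxia value did not reach. Its paralogue AT3G16080 read 18246 and 4729, a ratio of -1.90. AT3G28900, the L34 gene, read 7124 and 1392, a ratio of -2.31 and a 4.95-fold lower level. All genes of both proteins were thus well past 2-fold.

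L14 and L15 contrasted in how alike their paralogues were. Of the L14 genes, AT2G20450 read 7012 in control against 2173 in hypoxia, a log2 ratio of -1.64. AT4G27090 read 23003 and 12839, a ratio of -0.79. They lay 0.85 apart, on either side of the 2-fold line. L15, which is buried in ribosomal RNA and joins the subunit early in its assembly, had the most alike paralogues of the 13 proteins that could be compared. AT4G16720 read 24632 and 9294, a ratio of -1.36, and AT4G17390 read 23548 and 8435, a ratio of -1.43.

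The smallest changes by protein were found for L18, L7a, L18a, L7 and L6, the 5 proteins with a mean log2 ratio above -1. L18 and L6 had 1 gene with a value each. The L7 mean of -0.95 included AT2G44120 at -0.19, far above the other L7 genes. L4, with a mean of -1.001, lay next to this cut. The L18 gene AT5G27850 read 22035 in control against 12697 in hypoxia, a ratio of -0.75. The L7a genes AT2G47610 and AT3G62870 had ratios of -0.71, from 21512 to 12719, and -0.91, from 27755 to 14284. L7a was the only protein of the 13 with no paralogue at least 2-fold lower. The L18a gene AT2G34480, the brightest member in hypoxia, read 31676 and 18098, a ratio of -0.76. Its paralogue AT3G14600 read 18223 and 8436, a ratio of -1.06. The L6 gene AT1G18540 read 18404 and 9067, a ratio of -0.97. With AT2G01250, AT3G24830 and AT3G62870 it was 1 of 4 members that lay within 2-fold at -0.9 or lower, so these calls rest on where the threshold was set. Of the 2 remaining proteins, the L13 gene AT5G23900 read 13727 and 3779, a ratio of -1.81, and the L22 gene AT3G05560 read 17081 and 6086, a ratio of -1.44.

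Paralogues of the same protein were set beside members of different proteins, and the measures of spread did not all run one way. For the 13 proteins with at least 2 genes with values, 27 pairs of paralogues could be formed from 32 genes. Their ratios differed by a median of 0.62, against 0.52 over 676 pairs of members of different proteins, while the 90th percentiles were 1.07 and 1.28. Pairs share genes, so these figures are descriptions only. Whether a probe set also picks up RNA of a paralogue was not tested. The ratios of probe set pairs of the same gene differed by a median of 0.34, with a 90th percentile of 0.81. This percentile was passed by 7 of the 27 paralogue pairs. At least 2-fold apart were 4 of the 27 pairs, or 14.8%, beside 146 of the 676 pairs of different proteins, or 21.6%, and 2.70% of the 74 probe set pairs. All paralogues were at least 2-fold lower for 6 of the 13 proteins, some were for 6, and none was for L7a. Of all 38 members 27 were at least 2-fold lower, where 14.5% of all measured genes were. The split that the members' share alone would give was not computed. Paralogues at least 2-fold apart were found for 3 proteins, L7, L13a and L19. With loess normalization only L13a remained past 2-fold, at 1.05, where L7 was at 0.97 and L19 at 0.96, so these 3 lie near the threshold.

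The ratio moved with the brightness of the probe set. In 9 of the 13 proteins the gene that was dimmest in control also had the lowest ratio. The exceptions were L4, L7, L7a and L13a. As 9 of the 13 proteins had only 2 paralogues with values, such matches are frequent by order alone. The number to be had by order alone was not computed. Over the 38 members, the log2 control intensity and the log2 ratio had a Pearson correlation of 0.70 and a Spearman correlation of 0.68, with dimmer genes having lower ratios. Without AT1G15250, the dimmest, the 37 others gave 0.64 and 0.66. Over the 41 genes for 40S proteins above the floor on both arrays the values were 0.46 and 0.51. Over the 2360 other genes of the same brightness range they were -0.01 and -0.01. These are correlations across genes that share the same 2 arrays, and genes are not independent replicates. Intensities of different probe sets depend on their probes, so they do not rank paralogues by transcript level. The part of probe brightness in the differences between paralogues was not tested. Of the 30 measured genes brighter in control than any member, 1 was at least 2-fold lower, where 14.5% of all measured genes were. At least 2-fold higher were 0 of the 30, where 13.0% of all were.

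**Figure D3:**
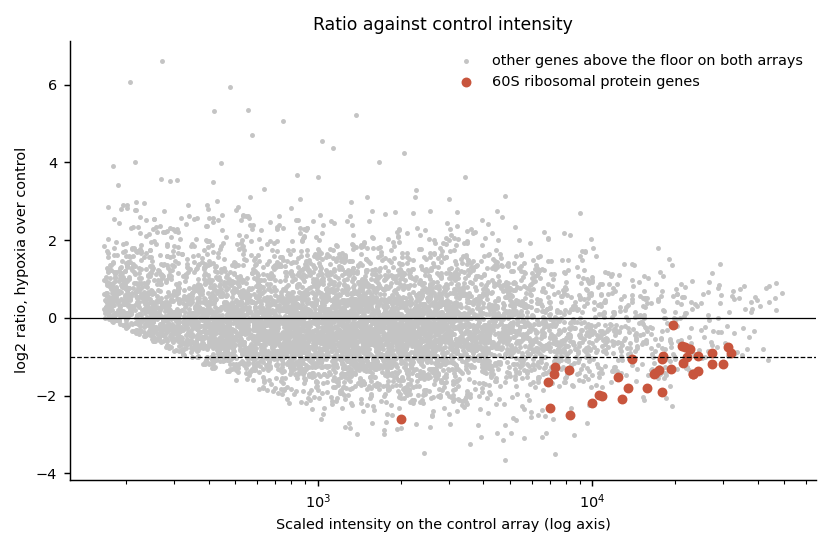
Log2 ratio of hypoxia over control against the scaled control intensity (log axis) for 38 genes for 60S proteins (red) and for the other genes above the floor on both arrays (grey), with a dashed line at 2-fold lower. The red points lie below 0 and rise from -2.61 for the dimmest, AT1G15250, to -0.89 for the brightest, AT1G67430.

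Genes with related roles were set beside the 60S genes, by counts and medians alone, since no test of a difference between lists could be made. Genes for the proteins of the small subunit, 40S, had a median log2 ratio of -1.32. At least 2-fold lower were 31 of their 42 measured genes, where 14.5% of all measured genes were. At least 2-fold higher were 0 of the 42, where 13.0% of all were. The lowest 40S gene was the S9 gene AT5G39850 at -3.02, and the highest the S14 gene AT3G11510 at -0.55. Genes of the acidic stalk, at whose base L12 lies, had a median of -1.22, with 8 of 11 measured genes at least 2-fold lower. Factors that assemble the 60S subunit in the nucleolus and nucleus had a median of -1.64, with 8 of 9 measured genes of 22 listed at least 2-fold lower. In all 3 lists every measured gene had a ratio below 0, against 52.9% of all measured genes.

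The large subunit of the plastid ribosome is of bacterial type, and most of its proteins are encoded in the nucleus. Of 24 listed nuclear genes for it, 7 were measured. All 7 read higher in hypoxia, from 0.29 to 1.15 on the log2 scale around a median of 0.92, where 52.9% of all measured genes read lower. At least 2-fold higher were 2 of the 7, where 13.0% of all measured genes were. At least 2-fold lower were 0, where 14.5% of all were. The ranges of the plastid and the cytosolic large-subunit genes did not overlap. Under centring on the hybridisation controls the plastid median was 0.42 and that of the 60S genes -1.83, and under centring on the reference genes they were 1.31 and -0.94.

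**Figure D4:**
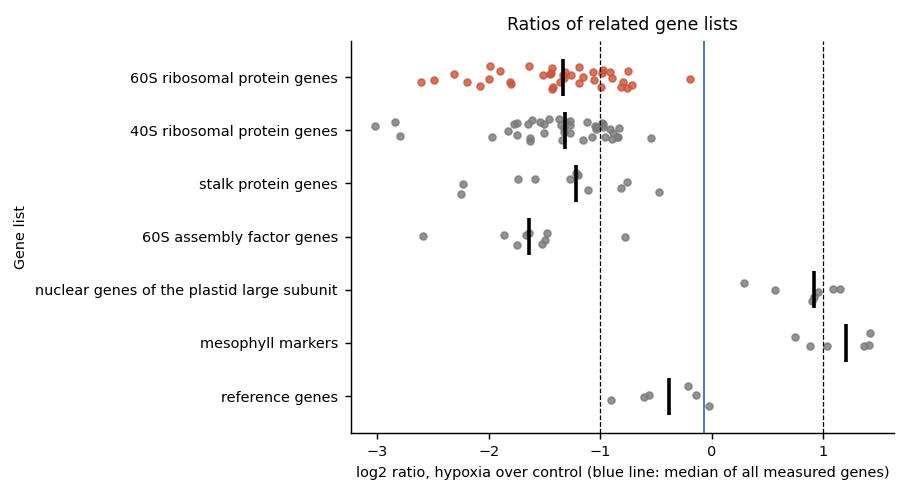
Log2 ratio of hypoxia over control for each measured gene (points) of 7 lists, with a black bar at the list's median and a blue line at the median of all measured genes (-0.07). The 60S, 40S, stalk and assembly lists have medians between -1.64 and -1.22, and the plastid list has 0.92.

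The lower level of the 60S genes held under each scaling, by different amounts. At least 2-fold lower were between 17 and 37 of the 38, the lowest count with centring on 6 reference genes and the highest with centring on 18 hybridisation controls. The share of all measured genes at least 2-fold lower moved the same way, to 6.75% with the former and 31.0% with the latter, from 14.5%. Those controls, spiked in equal amounts before hybridisation, all read higher in hypoxia, by a median of 0.50 on the log2 scale. The 6 reference genes all read lower and were spread, from -0.91 to -0.03 with a median of -0.39. With the first of these centrings 37 of 38 members were below 0, the exception being AT2G44120, and with the other settings all 38 were.

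**Figure D5:**
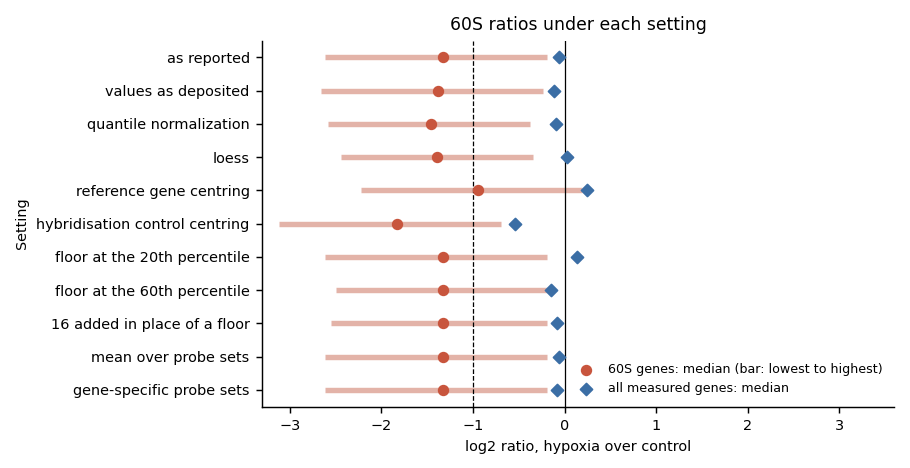
Median log2 ratio of the 38 genes for 60S proteins (red points, with bars from the lowest to the highest gene) and of all measured genes (blue diamonds) as reported and under 10 other settings. The red medians lie between -1.83 and -0.94, and a bar crosses 0 only with centring on the reference genes.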

How the data were processed

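Transcript levels were measured on Affymetrix arrays of 1 control and 1 hypoxia sample. The authors deposited 1 intensity per probe set and array, on a linear scale. The software was GCOS 1.0, per the submitters' processing notes, with settings and genome build not given in the sources used here. The authors had scaled the arrays, as read from a mean of 1500.1 in each column without its lowest and highest 2%. Detection calls were not used here.

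Of 22810 probe sets, 64 controls were left out. An older platform annotation paired 13513 of the others with 1 gene and 503 with several, and 13436 of the former were matched by Entrez identifier to the RefSeq gene table of TAIR10.1. Arrays were brought to a common median over the other 22746 probe sets, the geometric mean of their own medians. Scaled values under the 40th percentile of both arrays were set to it. The brightest probe set stood for a gene that had several, and no member had more than 1. A call means a difference of at least 2-fold. Assignment of loci to proteins follows the standard naming of Arabidopsis ribosomal protein families.

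The members, lists and alternatives were chosen with earlier results of these data known. Members named with values are those of proteins with several measured paralogues, and the 5 highest and 5 lowest ratios. The members of proteins with a single measured gene were added after their values were seen. Of the 40S list the highest and lowest were named. Alternatives changed the scaling, the floor or the probe sets. Scripts in Python 3.11.15 with pandas 2.3.3 and statsmodels 0.14.6 (loess, span 0.3) were tested on simulated data. No sequences or coordinates are printed.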

Additional observations from a re-analysis of the deposited data

Results flagged for a closer look

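The 5S ribosomal RNA, an RNA of the 60S subunit, entered no comparison. Its probe set read 260.0 in control and 3085 in hypoxia, a 12.3-fold higher reading after scaling. It is listed because it is a signal outside the gene results that lay above the control array. The probe set for 25S ribosomal RNA, also of the 60S subunit, read 107 and 99.0, under the floor on both arrays. Neither has a replicate. Whether the 5S reading reflects the amount of that RNA or the preparation of the samples was not tested.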

How the results depend on the processing

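No paired analysis was possible because each group has 1 array, and no replicate could be left out. Each of 10 alternatives was run once. The median log2 ratio of the 60S genes moved by more than the probe set SD with centring on the reference genes, to -0.94, and with centring on the hybridisation controls, to -1.83. With the former, 17 members were at least 2-fold lower in place of 27. With loess, 1 protein had paralogues at least 2-fold apart in place of 3. No setting gave a member at least 2-fold higher. Of 380 member values under the alternatives, 77 moved by more than the probe set SD, and 0 of the called members changed sign. Apart from AT1G15250 with the floor at the 60th percentile, the moves came from centring on the reference genes or the hybridisation controls. Each centring shifted every member by the same amount, too little to bring a called member to 0. Using only gene-specific probe sets, or the mean over probe sets, could not change the members, because each has a single gene-specific probe set. Gene-specific here means only that the probe set name does not end in _s_at or _x_at. No probe sequence was checked. Scaling by 1 factor per array, the floor at the 20th percentile and the choice of probe sets could not change the order of paralogues. Only quantile normalization, loess, adding 16 in place of a floor and the floor at the 60th percentile could. The same paralogue was lowest under every setting for 12 of 13 proteins. The exception was L37 with the floor at the 60th percentile.

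Over all measured genes, 1156 were at least 2-fold lower and 1037 higher. These counts were 545 and 1607 with reference gene centring, 2455 and 528 with hybridisation control centring, and 686 and 632 where the floor was the 60th percentile. With the floor at the 20th percentile 2272 were higher. The share of higher genes among those past 2-fold was 47.3%, and it was 74.7%, 17.7% and 61.8% with the reference genes, the hybridisation controls and the floor at the 20th percentile, in that order. The median of all measured genes was 0.24 with reference gene centring, -0.55 with hybridisation control centring and 0.13 where the floor was the 20th percentile. The cause of these shifts was not tested. The number of arrays limits the precision.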
